A study of Rattus norvegicus with 12 samples.

Results

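The macrophage genes are Csf1r, Adgre1, Cd68, Mrc1, Cd163, C1qa, C1qb, C1qc, Cd14 and Siglec10, 10 genes chosen by name as genes of tissue macrophages. Each of the 10 symbols had 1 probe set on the rat array, so the members are 10 of 14217 named genes and 10 of 31099 probe sets. The tissue was the whole abdominal mammary gland pair of female rats of the outbred Sprague-Dawley strain, on 12 arrays in 4 groups of 3. The groups were rats on soy protein isolate given 17β-estradiol (E2), rats on soy protein isolate without E2, rats on casein given E2, and rats on casein without E2. Soy protein isolate is a soybean preparation that carries isoflavones, and casein is the main milk protein. All rats in all groups had been ovariectomized on postnatal day 50, ate their diet between day 30 and day 64, and were killed on day 64 after 14 days of E2 by osmotic pump or of vehicle. The titles call each array a pool, and how many animals made up a pool is not stated in the sources used here. The question of the series is how diet protein and estrogen, singly and combined, alter the gland's gene expression.

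Macrophages live in the stroma and fat of the mammary gland, around ducts and blood vessels, and they clear dying cells and debris and take part in duct growth. They depend on the receptor Csf1r, take up sugars, haemoglobin and dead cells through scavenger receptors, and are a main source of the complement protein C1q, which marks cells for removal. In a whole gland, fewer macrophages and less RNA of a gene per macrophage cannot be told apart.

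Deposited values are centred on the median of each probe set, so they show differences between arrays and no level of expression, and the presence of macrophages could not be checked from them. All values below are read as log2, and the number of arrays limits their precision. Casein plus E2 pools 2 and 3 were near copies, with an SD of 0.163 for their difference over all probe sets against 0.301 or more in the other 65 pairs of arrays. They were averaged and counted as 1 sample, which leaves 11 samples and n = 2 for casein plus E2. The labels do not state whether the pools of a group came from separate animals, and p-values therefore reflect only pool-to-pool spread, which may be technical. Casein pool 3 held liver transcripts, with a mean of 5.67 over 8 liver markers against at most 0.35 in the other samples, and 6 skeletal muscle genes averaged 4.0 in soy pool 2 and 3.64 in casein pool 2 against at most 1.76 elsewhere. The mean of 15 lymphocyte markers split the samples, with 1.20, -0.80 and 0.77 in soy plus E2, -1.38, 1.67 and 2.11 in soy, -0.90 and 0.63 in casein plus E2, and -1.20, -1.0 and -0.90 in casein. Spike-in transcripts added at hybridisation split them the same way, in that the samples with a negative lymphocyte mean had a positive spike-in mean. The 3′ minus 5′ difference of the Gapdh control probe sets is a sign of RNA quality, and with centred values it only compares arrays. It ran between -0.02 and 0.25 in soy plus E2 pools and between -0.27 and 0.02 in soy pools. In casein plus E2 pools it ran between 0.05 and 0.21, and in casein pools between -0.07 and 0.18. For beta-actin the ranges in the same order were -0.11 to 0.48, -0.47 to 0.32, 0.0 to 0.23 and -0.12 to 0.5. The part of RNA quality in the group differences was not tested.

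The stretches before the start of Mrc1, C1qa and C1qb are shown as examples of windows that lie outside the gene. The window of Cd68 also lies outside its gene and is not shown. Each is the 250 bases before the start site in RefSeq's GRCr8 promoter table, 5′ to 3′ on the gene's strand. Capitals mark GAGGAA or its reverse complement TTCCTC, a core bound by the myeloid factor PU.1, and the C1qa stretch holds none.
Mrc1: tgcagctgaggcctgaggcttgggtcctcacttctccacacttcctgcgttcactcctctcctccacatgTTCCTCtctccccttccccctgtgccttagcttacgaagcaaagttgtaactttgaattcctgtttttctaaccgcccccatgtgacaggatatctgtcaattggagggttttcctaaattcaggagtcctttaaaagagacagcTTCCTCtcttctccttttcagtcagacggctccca
C1qa: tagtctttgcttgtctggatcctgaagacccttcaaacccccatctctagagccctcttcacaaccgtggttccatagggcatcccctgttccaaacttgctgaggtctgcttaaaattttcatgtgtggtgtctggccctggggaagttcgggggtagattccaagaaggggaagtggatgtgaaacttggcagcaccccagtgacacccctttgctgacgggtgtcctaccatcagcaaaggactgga
C1qb: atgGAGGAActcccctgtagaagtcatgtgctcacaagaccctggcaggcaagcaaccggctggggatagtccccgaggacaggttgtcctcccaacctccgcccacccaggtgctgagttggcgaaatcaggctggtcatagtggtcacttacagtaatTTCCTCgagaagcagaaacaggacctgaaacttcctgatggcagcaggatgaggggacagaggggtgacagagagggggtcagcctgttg
These windows lie at chr17:82157475-82157724 (+) for Mrc1, chr5:154419934-154420183 (-) for C1qa and chr5:154407828-154408077 (-) for C1qb. Of the 9 members with a window in the table, 7 held GAGGAA on either strand, against 23.3% of all 33469 windows of that length. In 5 of the 9 (Cd163, Csf1r, Adgre1, Cd14 and Siglec10) the table's start site lies inside the gene's span, so that between 23 and 250 bases of the window are within the gene. Of the 4 windows outside the gene 3 held the motif. The full estrogen response element (GGTCA, any 3 bases, TGACC) was in 0 of the 9 and in 0.0239% of all windows. A match of letters is a description and shows no binding.

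Csf1r (probe set 1388784_at, gene at chr18:56834152-56860804 in GRCr8) encodes the receptor for the growth factor Csf1, on which most tissue macrophages depend. Its values were -0.16, -0.48 and 0.09 in soy plus E2 pools, against 0.89, 0.67 and 0.82 in soy pools. In casein plus E2 samples they were 0.48 and -0.12, against -0.09, 0.63 and -0.34 in casein pools. All 3 soy pools were higher than every other sample, while casein plus E2 and casein overlapped. The difference was -0.98 ± 0.26 for E2 in soy-fed rats (log2 difference ± SE of the limma fit, adjusted p = 0.107) and 0.11 ± 0.29 for E2 in casein-fed rats (adjusted p = 0.879). Soy minus casein without E2 was 0.73 ± 0.26 (limma adjusted p = 0.430). None of these passed the test, a Benjamini-Hochberg adjusted p under 0.05 over all genes.

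Adgre1 (1381311_at, chr9:2329398-2484959) encodes an adhesion receptor whose mouse protein is the macrophage antigen F4/80. It stood at -0.62, -0.54 and -0.21 in soy plus E2 pools, against 0.83, 0.28 and 0.34 in soy pools. Casein plus E2 samples had 0.02 and -0.14, against 0.05, 0.59 and -0.25 in casein pools. Soy plus E2 was below soy without overlap and also below both casein plus E2 samples. Adgre1 differed by -0.94 ± 0.22 for E2 in soy-fed rats (limma adjusted p = 0.0938) and by -0.19 ± 0.25 for E2 in casein-fed rats (adjusted p = 0.737). Cd68 (1375010_at, chr10:54880562-54882441), a glycoprotein of macrophage lysosomes, had 0.20, -0.37 and -0.21 in soy plus E2 pools, against 0.75, 0.16 and 0.34 in soy pools. It had 0.03 and -0.04 in casein plus E2 samples, against -0.30, 0.21 and -0.75 in casein pools. Cd68 groups overlapped in every such pair, and its largest differences were 0.69 ± 0.25 for soy without E2 (limma adjusted p = 0.430) and -0.54 ± 0.25 for E2 in soy-fed rats (adjusted p = 0.253).

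The scavenger receptor Mrc1 (1392648_at, chr17:82157725-82239411), the macrophage mannose receptor, which lymphatic endothelium also makes, gave the lowest E2 difference of the members. Its values were -0.86, -0.53 and -0.09 in soy plus E2 pools, against 0.74, 0.57 and 0.66 in soy pools. They were 0.15 and -0.24 in casein plus E2 samples, against 0.09, 0.72 and -0.25 in casein pools. The soy pools lay close together and above all soy plus E2 pools, and casein pool 2 was as high as they were. Averaged over both diets Mrc1 fell by 0.69 with E2 (-0.69 ± 0.19, limma adjusted p = 0.0450), with -1.15 ± 0.25 in soy-fed rats (adjusted p = 0.0830) and -0.23 ± 0.28 in casein-fed rats (adjusted p = 0.714). The call on the average was lost when any 1 of 8 arrays was left out (soy plus E2 pools 1 and 2, soy pools 1, 2 and 3, pool 1 of casein plus E2, and casein pools 1 and 2), with values between -0.79 and -0.56 and adjusted p between 0.0655 and 0.0991. Lyve1, a receptor of lymphatic endothelium and some macrophages, differed by -1.13 ± 0.23 for E2 in soy-fed rats (limma adjusted p = 0.0766), and 0 of 5 lymphatic endothelium markers passed in any comparison.

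Cd163 (1393917_at, chr4:158770751-158804146), the ED2 antigen of rat resident macrophages, takes up haemoglobin bound to haptoglobin. It stood at -0.28, -0.08 and -0.33 in soy plus E2 pools, against 0.67, 0.02 and 0.11 in soy pools. It had 0.49 and -0.29 in casein plus E2 samples, against 0.16, 0.42 and -0.02 in casein pools. Soy plus E2 lay below soy by a narrow gap, and the 2 casein plus E2 samples were far apart. The differences were -0.49 ± 0.23 for E2 in soy-fed rats (limma adjusted p = 0.254), -0.09 ± 0.25 for E2 in casein-fed rats (adjusted p = 0.896) and 0.08 ± 0.23 for soy without E2 (adjusted p = 0.939).

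C1qa, C1qb and C1qc encode the 3 chains of C1q, the recognition part of the first complement component, and lie side by side on chr5:154402276-154419933, within 17658 bases. C1qb (1370215_at) had -0.15, -0.50 and -0.02 in soy plus E2 pools, against 0.60, 0.56 and 0.58 in soy pools. It had 0.17 and -0.04 in casein plus E2 samples, against -0.27, 0.10 and -1.06 in casein pools. The soy pools stood above all other samples and close together, and casein pool 3 was far below the rest. C1qa (1376652_at) had 0.19, -0.33 and -0.10 in soy plus E2 pools, against 0.78, 0.32 and 0.49 in soy pools. Its values were 0.12 and -0.15 in casein plus E2 samples, against -0.33, 0.10 and -0.37 in casein pools. C1qa thus had the soy pools on top as well, without overlap with any other group. C1qc (1373025_at) had -0.21, -0.39 and 0.01 in soy plus E2 pools, against 0.48, 0.42 and 0.38 in soy pools. It had 0.38 and -0.05 in casein plus E2 samples, against -0.26, 0.20 and -0.71 in casein pools. For C1qc, casein plus E2 pool 1 reached the level of soy pool 3.

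For E2 in soy-fed rats C1qa, C1qb and C1qc differed by -0.61 ± 0.18, -0.81 ± 0.25 and -0.62 ± 0.21 (limma adjusted p = 0.129, 0.136 and 0.155). For soy without E2 the differences were 0.73 ± 0.18, 0.99 ± 0.25 and 0.68 ± 0.21 (limma adjusted p = 0.398, 0.398 and 0.419). Casein pool 3, the pool with liver transcripts, was the lowest sample for C1qb and C1qc, and without it the soy differences of C1qa, C1qb and C1qc were 0.64, 0.67 and 0.45. For E2 in casein-fed rats the 3 genes had 0.18 ± 0.20, 0.48 ± 0.28 and 0.42 ± 0.24 (limma adjusted p = 0.674, 0.390 and 0.371), and 0.10, 0.15 and 0.20 without casein pool 3. Over the 11 samples the 3 pairs of C1q genes had Pearson r between 0.83 and 0.97, given as a description without a test, since all come from the same arrays.

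**Figure D1:**
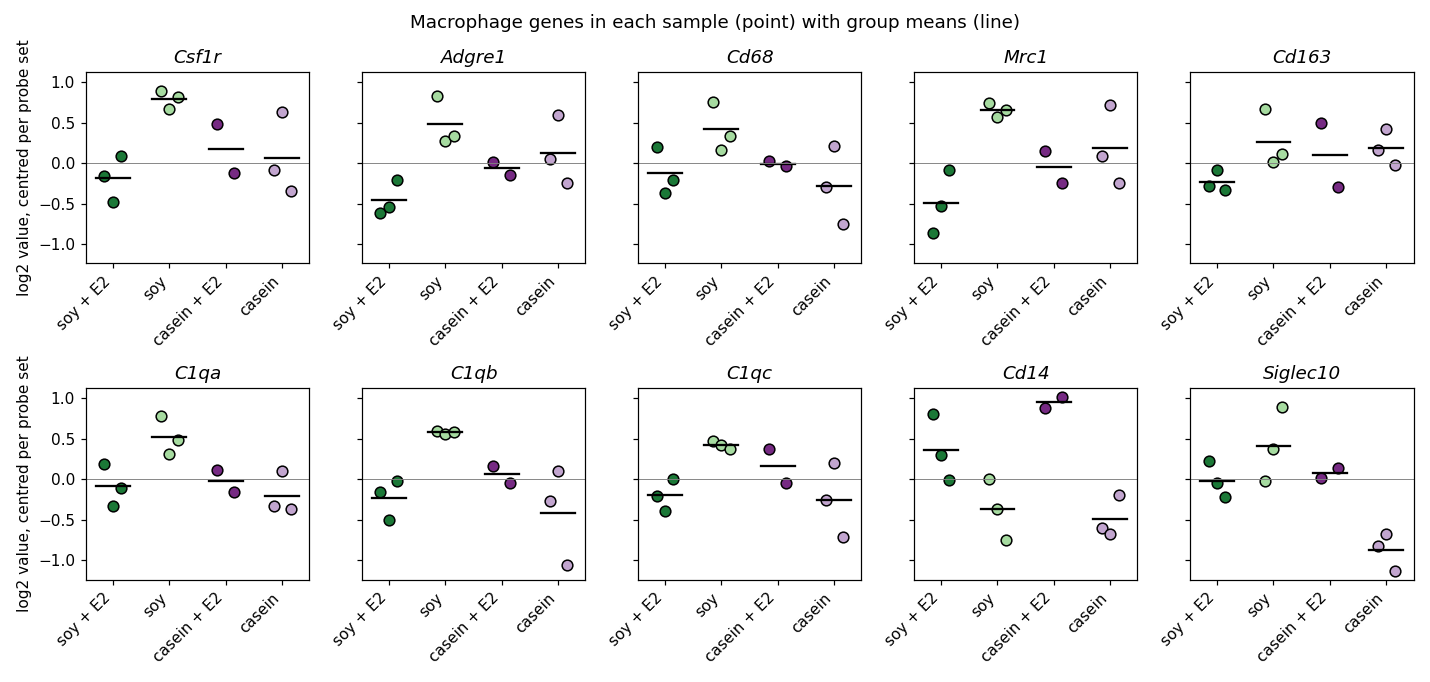
Log2 value of each macrophage gene, centred per probe set (vertical axis), in each sample (point) of the 4 groups, with group means as lines; casein plus E2 has 2 samples because near-copy arrays were averaged. Soy pools stand highest for Csf1r, C1qa and C1qb, casein plus E2 samples highest for Cd14, and casein pools lowest for Siglec10.

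Cd14 went its own way and rose with E2. It encodes the co-receptor that hands lipopolysaccharide to Tlr4, and besides macrophages other cells, including epithelium, can make it. The probe set (1368490_at, chr18:28609558-28611409) had 0.81, 0.30 and -0.01 in soy plus E2 pools, against 0.01, -0.37 and -0.75 in soy pools. It had 0.88 and 1.02 in casein plus E2 samples, against -0.60, -0.67 and -0.19 in casein pools. Casein plus E2 was above every other sample, and soy plus E2 overlapped soy by soy plus E2 pool 3. Cd14 rose by 1.44 ± 0.27 with E2 in casein-fed rats, a 2.71-fold difference (limma adjusted p = 0.0369), and by 1.09 ± 0.18 averaged over both diets (2.12-fold, adjusted p = 0.0109). In soy-fed rats the difference was 0.74 ± 0.24 (limma adjusted p = 0.145).

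The call of Cd14 on the average held without each array in turn, with values between 0.98 and 1.18 and adjusted p between 0.00446 and 0.0456. It was lost within the 6 arrays of high spike-in signal, which hold 1 pool of each group but casein (0.83, limma adjusted p = 0.150) and without the 3 pools with liver or muscle transcripts (1.14, adjusted p = 0.124). The call in casein-fed rats was lost when any 1 of 5 arrays was left out (soy plus E2 pool 2, soy pool 2, pool 1 of casein plus E2, and casein pools 1 and 2), with values between 1.35 and 1.5 and limma adjusted p between 0.0549 and 0.184. Among markers of other cell types, the mean of 7 epithelium markers ran between 0.08 and 0.34 in soy plus E2, between -1.47 and -0.23 in soy, between 0.26 and 0.31 in casein plus E2 and between -0.97 and -0.06 in casein. Of these 7 markers 4 passed higher for E2 on average (6.73% of all genes did), among them Krt19 (1.16 ± 0.27, limma adjusted p = 0.0266). The part of epithelium in the Cd14 difference was not tested.

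Siglec10 (1394501_at, chr1:102953894-102962964) encodes an inhibitory receptor for sialic acids, and its mouse counterpart Siglecg is known chiefly from B cells. It stood at 0.23, -0.05 and -0.22 in soy plus E2 pools, against -0.02, 0.38 and 0.89 in soy pools. It stood at 0.02 and 0.14 in casein plus E2 samples, against -0.82, -0.68 and -1.13 in casein pools. The casein pools were the lowest samples by a wide gap, and the other groups overlapped. Siglec10 differed by 1.29 ± 0.22 for soy without E2 (limma adjusted p = 0.373), by 0.95 ± 0.24 for E2 in casein-fed rats (adjusted p = 0.0734) and by 0.86 ± 0.22 for soy plus E2 against casein (adjusted p = 0.0961). Lymphocyte markers were low in all casein pools too, and with the lymphocyte mean as a term in the fit the soy difference of Siglec10 was 0.99 (limma adjusted p = 0.766). Under this term the adjusted p of the soy difference also rose for Cd68, Mrc1, Csf1r, Adgre1, C1qa, C1qb and C1qc. It fell for Cd163 and Cd14. The lymphocyte mean splits the samples as the spike-in transcripts do, so the term cannot tell these apart. The part of lymphocytes in the Siglec10 difference was therefore not tested. Soy pool 1, with the lowest lymphocyte mean of all samples (-1.38), had the lowest Siglec10 of the soy pools. Without that pool the soy difference was 1.51 and passed (limma adjusted p = 0.0418). Without soy pool 1 or soy pool 3, which only share the estimate of spread, the E2 difference of Siglec10 in casein-fed rats passed (limma adjusted p = 0.0400 and 0.0467).

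For E2 in soy-fed rats 0 of 10 members passed in limma, against 0.218% of all genes. The median difference of the members was -0.62, against 0.00 over all genes, and 9 of 10 were negative, Cd14 being the exception. At an unadjusted p under 0.05, 6 members were lower (10.2% of all genes were) and 1 was higher (10.4% of all genes were). In 7 members every soy plus E2 pool was below every soy pool, as in 12% of all genes. The median was -0.56 within the low spike-in arrays. The high spike-in arrays hold 1 pool of each of these groups, so their value of -1.11 has no replicate check. The median was -0.69 without the 3 pools with liver or muscle transcripts. Without soy plus E2 pool 3, Mrc1 (-1.35, limma adjusted p = 0.0280) and Adgre1 (-1.06, adjusted p = 0.0457) passed. Fat cell markers were lower with E2 in the same rats, with means between -1.52 and 0.03 in soy plus E2 and between 0.04 and 0.72 in soy. They were also lower with E2 in casein-fed rats (list median -1.16, against -1.2 in soy-fed rats), where the members had a median of 0.23. The part of fat cells in the macrophage differences was not tested.

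For E2 in casein-fed rats 1 of 10 members, Cd14, passed in limma, against 2.43% of all genes. The median of the members was 0.23, against 0.02 over all genes, with 7 positive and 3 negative. This median rests on single arrays, at 0.13 when casein plus E2 pool 1 was left out, 0.46 when casein pool 2 was, and 0.07 when casein pool 3 was, where 6 were positive and 4 negative. Both Cd14 and Siglec10 were higher at an unadjusted p under 0.05 (10.6% of all genes were) and did not overlap casein, as in 22.5% of all genes. Averaged over both diets 2 of 10 passed, Cd14 higher and Mrc1 lower. Of all genes 12.2% passed there, 6.73% higher and 5.51% lower, so the members' share is near that of genes in general. At an unadjusted p under 0.05, 1 member was higher (15% of all genes were) and 3 were lower (14% were). Adgre1 missed the threshold on this average (-0.56 ± 0.17, limma adjusted p = 0.0566) and passed without soy plus E2 pool 3 (-0.62, adjusted p = 0.0421) or without casein pool 3 (-0.66, adjusted p = 0.0311). It also passed with 12 separate arrays, quantile normalization, array medians subtracted and array weights, with values between -0.58 and -0.45 and limma adjusted p between 0.0211 and 0.0491. The 12 separate arrays count the near-copy pools as separate samples. In all, Adgre1 passed on this average in only 6 of 24 alternatives, and in 2 of the 12 fits with 1 array left out.

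**Figure D2:**
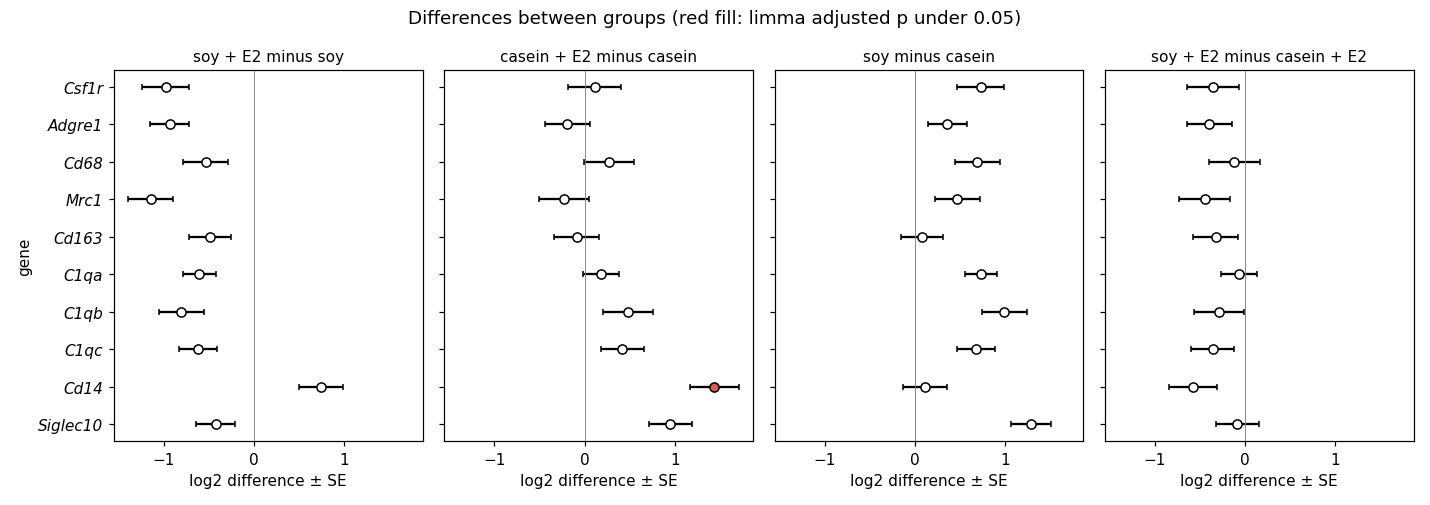
Log2 difference of each macrophage gene (horizontal axis, with the SE of the limma fit as bars) in 4 comparisons, filled red where the adjusted p was under 0.05. Only Cd14 for casein plus E2 minus casein is filled, at 1.44, and 9 of 10 genes lie below 0 for soy plus E2 minus soy.

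Soy without E2 gave positive differences in all 10 members, between 0.08 (Cd163) and 1.29 (Siglec10), with a median of 0.69 against -0.01 over all genes. None of the 10 passed in limma, and 0% of all genes did. At an unadjusted p under 0.05, 6 members were higher, against 7.21% of all genes, and in 5 members (Csf1r, C1qa, C1qb, C1qc and Siglec10) the groups did not overlap, against 7.79%. The median was 0.46 without casein pool 3 (9 members positive), 0.56 without soy pool 1 (8 positive) and 0.78 within the high spike-in arrays, where soy pool 1 stands alone against the 3 casein pools. Soy pool 1 had the highest member mean (0.57) and the lowest lymphocyte mean of all samples. With the lymphocyte mean as a term the median was 0.75 and 10 of 10 members were positive. With array weights in the fit 5 members passed (Csf1r, C1qa, C1qb, C1qc and Siglec10), while limma then called 1588 genes in all.

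With E2 on both sides, soy minus casein was negative in all 10 members, with a median of -0.35 against 0.00 over all genes. The median was -0.15 without casein plus E2 pool 1, with 2 members positive, and -0.05 within the low spike-in arrays. None passed in limma, against 0.00703% of all genes, and 0 had an unadjusted p under 0.05, with 2.26% of all genes higher and 2.84% lower at that p. In Adgre1 and Cd14 every soy plus E2 pool was below both casein plus E2 samples, as in 12.8% of all genes. The largest was Cd14 at -0.58 ± 0.27 (95% interval -1.19 to 0.02), and the interval of C1qa ran from -0.52 to 0.39, so differences within these bounds could not be told from 0. Averaged over E2 levels the soy difference had a median of 0.17 over the members (0.11 when soy plus E2 pool 3 was left out, 0.29 when casein plus E2 pool 1 was, and 0.30 and 0.06 when casein pools 2 and 3 were), with 0 passing in limma, 0% of all genes passing and 2 members (C1qa and Siglec10) higher at an unadjusted p under 0.05, against 4.18% of all genes. Soy plus E2 against casein, the combined treatment, had 0 of 10 members passing, against 0.309% of all genes, and a median of 0.09. The direction of this median was not stable, at -0.01 with soy plus E2 pool 1 left out, 0.20 and 0.02 with pools 2 and 3 of that group left out, 0.28 with casein pool 2 left out, -0.15 with casein pool 3 left out and -0.13 within the high spike-in arrays. In that comparison Cd14 (0.85 ± 0.24, limma adjusted p = 0.113, or 1.04 with adjusted p = 0.0487 without soy plus E2 pool 3) and Siglec10 (0.86) were above casein, while Mrc1 (-0.68 ± 0.25) and Adgre1 (-0.58 ± 0.22) were below. These 4 had an unadjusted p under 0.05, where 10.4% of all genes were higher and 9.88% lower. Cd14 and Siglec10 did not overlap casein on the higher side (15.5% of all genes) and Cd163 did not on the lower side (11.2%).

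The E2 difference in soy-fed rats minus that in casein-fed rats, the interaction, was negative in all 10 members, between -1.38 (Siglec10) and -0.41 (Cd163). The median was -0.87, against -0.01 over all genes. None of the 10 passed in limma and 0% of all genes did, and the smallest adjusted p among the members was 0.537, for Siglec10 (-1.38 ± 0.33). At an unadjusted p under 0.05, 7 members were lower, against 3.62% of all genes. The interaction, the E2 difference in soy-fed rats and soy without E2 share the 3 soy pools, which were high for most members, so they are not separate evidence. Within the high spike-in arrays the median of the interaction was -1.34, without a replicate check, since each group but casein has 1 pool there. The interaction was negative in 10 of 10 members there, with a term for the spike-in split, with the lymphocyte mean as a term and without the 3 pools with liver or muscle transcripts. These fits reuse the same pools and the members run alike, so they are no separate evidence either.

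**Figure D3:**
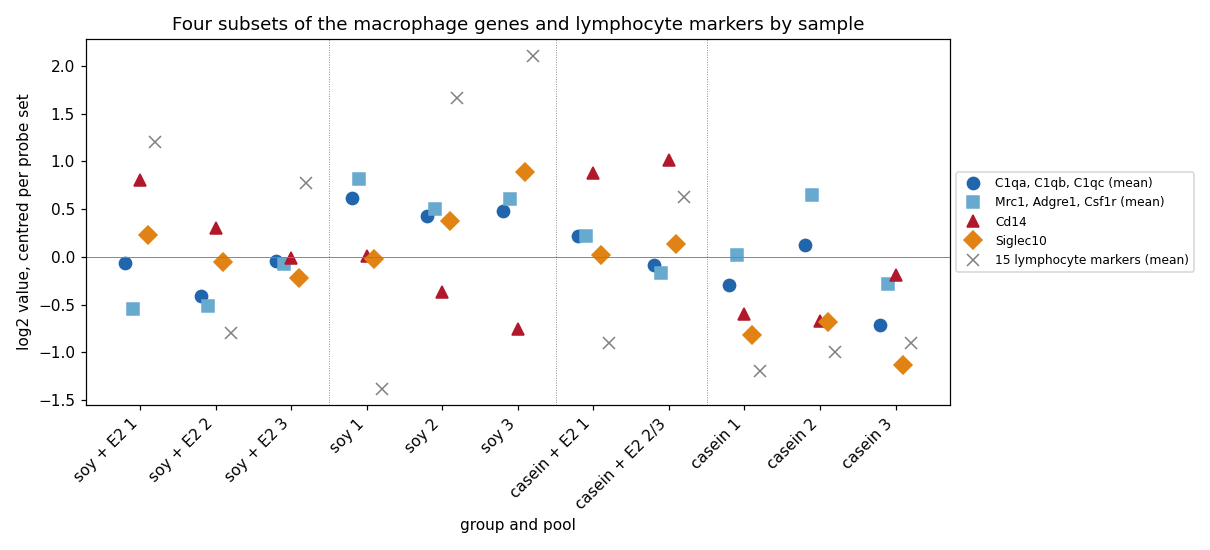
Log2 values centred per probe set (vertical axis) in each of the 11 samples (horizontal axis) for the mean of C1qa, C1qb and C1qc, the mean of Mrc1, Adgre1 and Csf1r, Cd14, Siglec10 and the mean of 15 lymphocyte markers. In soy pool 1 the C1q mean is 0.62 while the lymphocyte mean is -1.38, and Cd14 is highest in the casein plus E2 samples.

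Members differed in how alike their patterns were. Over the 11 samples the 28 pairs among the 8 members besides Cd14 and Siglec10 had Pearson r between 0.40 and 0.97, with a median of 0.76, and Mrc1 and Adgre1 reached 0.96. Pairs with Cd14 had r between -0.63 and 0.20, and pairs of Siglec10 with the 8 had r between -0.12 and 0.71. The genes most like the mean of the members over these 11 samples were Colec12 (r = 0.970), Men1 (0.968), Fxyd2 (0.928), Fcna (0.924), Tyrobp (0.922), Ccr2 (0.919), Ap1s2 (0.913), Folr2 (0.912), Hpcal1 (0.911) and Ninj1 (0.908). Colec12 is a scavenger receptor, Fcna a ficolin of the lectin pathway of complement, Tyrobp the signalling adaptor of several myeloid receptors, Ccr2 a chemokine receptor of monocytes and Folr2 a folate receptor of resident macrophages. Fcna differed by -1.22 ± 0.28 for E2 in soy-fed rats (limma adjusted p = 0.0868) and by 1.15 ± 0.28 for soy without E2 (adjusted p = 0.398). Both differences of Fcna were the largest in size among the genes listed for their r. These genes were picked for following the members over the same samples. Differences in the members' direction follow from that choice and are no separate evidence.

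Genes around the members in the same pathways were called for E2, mostly on the average over both diets, where 12.2% of all genes passed. Soy without E2 gave no call, as for all genes, so its counts of 0 say nothing about these lists. Among 10 measured growth and transcription factors Nr1h3, the liver X receptor alpha, fell by 0.72 with E2 on average (-0.72 ± 0.13, limma adjusted p = 0.0124) and Cebpb rose by 0.57 ± 0.16 (adjusted p = 0.0442). In casein-fed rats Nr1h3 fell by 1.0 (-1.0 ± 0.19, limma adjusted p = 0.0369). Of 13 genes of the lipopolysaccharide pathway 1 passed on the E2 average, Lbp, the binding protein that loads Cd14, at 1.22 ± 0.35 (limma adjusted p = 0.0497). Of 13 lysosome genes the protease gene Ctsc (0.67 ± 0.11) and the lipase gene Lipa (0.88 ± 0.23) passed higher on the E2 average and 0 passed lower. At an unadjusted p under 0.05 in limma, 2 lysosome genes were higher and 2 lower (15% and 14% of all genes were), and the list's median was 0.01. Of 10 genes of lipid-laden and remodelling macrophages Cd9 (0.78 ± 0.12) and the macrophage elastase Mmp12 (1.74 ± 0.39, limma adjusted p = 0.0252) rose on that average, while the lipoprotein lipase gene Lpl, also strong in fat cells, fell by 0.85 (-0.85 ± 0.22). Of 7 haem and iron genes the haem transporter gene Slc48a1 (-0.71 ± 0.18) and the biliverdin reductase gene Blvrb (-0.38 ± 0.10) passed lower on the E2 average, and 0 passed higher. Which cells of the whole gland gave the differences in any of these lists was not tested.

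No gene passed in any comparison among 9 scavenger and lectin receptors, 10 Fc receptor and integrin genes, 8 other complement genes and 11 class II antigen presentation genes. Of all genes 12.2% passed on the E2 average and at most 2.43% in any other comparison. Counts of 0 in lists this short therefore say little. For E2 in soy-fed rats 5 scavenger, 4 Fc receptor, 4 other complement and 1 class II genes were lower at an unadjusted p under 0.05 in limma (10.2% of all genes were). At that p 1 Fc receptor gene was higher (10.4% of all genes were). For soy without E2 the class II genes had a median of 0.93, the Fc receptor list 0.48, with Fcgr2b at 1.14 ± 0.31 (limma adjusted p = 0.406), and the lysosome list 0.02, against 0.69 for the members. The lymphocyte list had 1.98 and the list of 8 general leukocyte genes 1.68. For E2 in soy-fed rats the medians were -0.43 for the Fc receptor list, -0.38 for the scavenger list, -0.35 for other complement, with the C1 inhibitor gene Serping1 at -0.88 ± 0.20 (limma adjusted p = 0.0868), and -0.10 for lysosome genes, against -0.62 for the members. On the E2 average 5.51% of all genes passed lower. Of 7 mast cell markers 6 passed lower there, among them Cpa3 (-2.17 ± 0.36). Of 7 fat cell markers 6 passed lower, among them Adipoq (-1.5 ± 0.29). Of 6 blood endothelium markers 3 passed lower on that average, among them Cldn5 (-0.87 ± 0.17). All 6 were lower at an unadjusted p under 0.05 in limma, against 14% of all genes. None of 4 dendritic cell, 4 neutrophil, 2 Kupffer cell, 8 liver, 15 lymphocyte or 8 leukocyte genes passed in any comparison. As above, counts of 0 in lists this short say little.

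**Figure D4:**
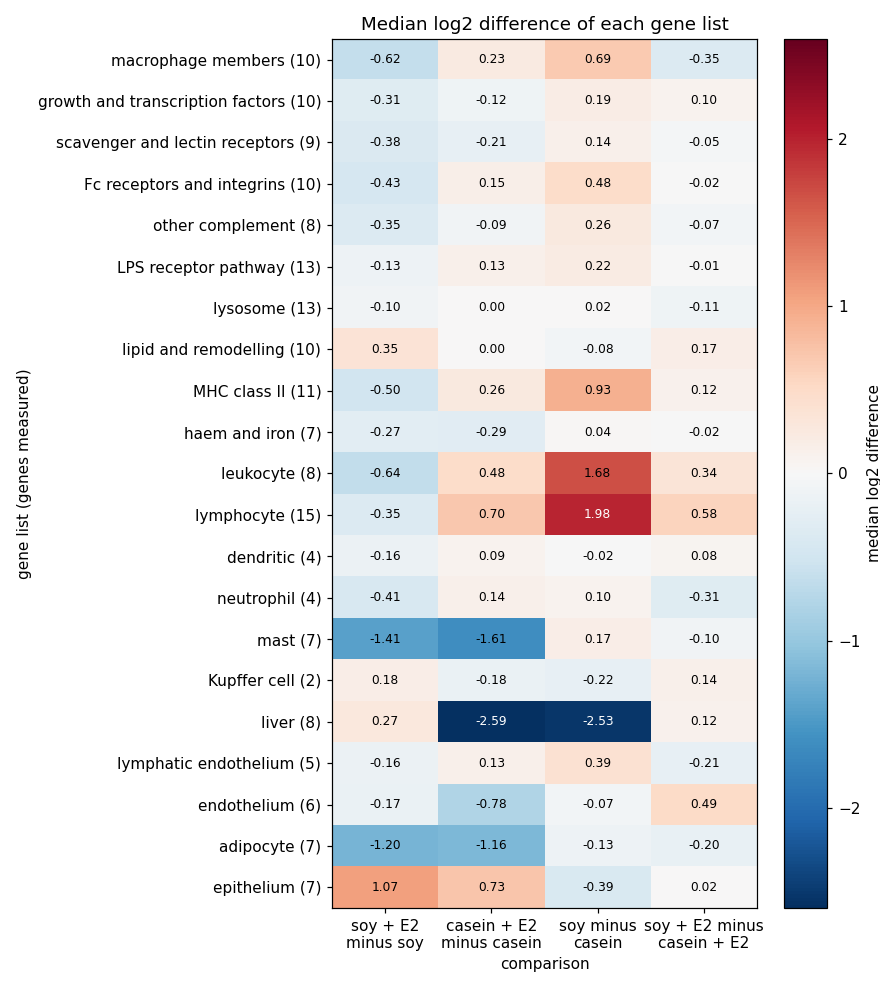
Median log2 difference (colour and printed value) of each gene list (rows, with the number of genes measured) in 4 comparisons (columns). The members stand at -0.62 for soy plus E2 minus soy and 0.69 for soy minus casein, and lymphocyte markers at 1.98 for soy minus casein.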

How the data were processed

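RNA of whole abdominal mammary glands, 8 µg a sample, went onto Affymetrix rat arrays, per the labels' protocols. The authors deposited 1 table of 31099 probe sets on 12 arrays, whose values were taken to be log2, since no probe set spanned more than 9.85, and every log2 difference rests on that reading. The submitters' processing notes name GCOS with no version, and the sources used here do not give the summarisation, normalization or log base. The largest median of a probe set was 5e-07, so values are centred, and no filter on dim probe sets was possible. Array medians lay between -0.0246 and 0.0112. The labels name liver in 1 field and mammary gland as the source, and samples were treated as mammary gland.

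Of the probe sets 20826 carried 1 gene in the platform annotation, 436 several, 9780 were unnamed here and 57 were controls; 20758 matched the GRCr8 table by gene identifier. Probe sets of a gene were averaged, giving 14217 genes. Group means of the 4 groups were estimated in limma 3.58.1 (R 4.3.3) over 11 samples, leaving 7 residual degrees of freedom. For 8 two-sided contrasts, calls required a Benjamini-Hochberg adjusted p below 0.05 over all genes. The code was tested on simulated data. Groups and pool numbers came from sample titles. Samples of 1 pool number were not treated as paired across groups. Of 18 correlations of their deviations from group means, 5 were above 0.1 (lowest -0.42, highest 0.46). Casein plus E2 with soy had 0.46, 0.24 and 0.22 for pools 1, 2 and 3. With so few pools this check cannot settle whether pools were paired.

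The 10 members, 20 other gene lists (195 symbols, of which 164 were measured) and tests were chosen with earlier results of these data known. All members are named. From the other lists the text names called genes of smallest p, up to 4 a list and comparison, or the gene of smallest p, and the 10 genes of highest r with the members' mean. The alternatives were 12 separate arrays, quantile normalization, median centring, the probe set of largest SD, each probe set on its own, a fit of the compared groups alone, array weights, pool number as a block, the spike-in split (whether 18 spike-in probe sets averaged above 0) as a term and within each side, and leaving out each array. Chosen after seeing the data were 6 skeletal muscle genes, the fit without the 3 pools with liver or muscle transcripts and the lymphocyte mean as a term.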

Additional observations from a re-analysis of the deposited data

How the results depend on the processing

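Of 80 differences (10 members in 8 comparisons), 32 had an unadjusted p under 0.05, and all 775 of their values under the alternatives kept their direction. Of the 1165 values of the other 48 differences 56 changed sign. Part of the values in both counts could not change, since each member has 1 probe set. A fit of the compared groups alone, or without an array of another group, also leaves a difference as it was. The count of 775 is therefore no measure of stability. For E2 in casein-fed rats 1 member passed, and 2 passed with 12 separate arrays, with pool number as a block on these arrays (the replicate block) and with array weights, as Siglec10 joined Cd14. None passed (0) within the high spike-in arrays or without the 3 pools with liver or muscle transcripts, where fewer samples were tested, and between 0 and 2 passed when 1 array was left out. For E2 in soy-fed rats 0 passed, against 1 with 12 separate arrays, 2 with quantile normalization, 6 with array weights and between 0 and 2 when 1 array was left out. For soy without E2 0 passed, against 5 with array weights and between 0 and 1 when 1 array was left out. For soy plus E2 against casein 0 passed, against 2 with array weights and between 0 and 1 when 1 array was left out. For the E2 average 2 passed, against 3 with 12 separate arrays, quantile normalization, array medians subtracted and array weights, as Adgre1 joined, 1 with a term for the spike-in split, 0 within the high spike-in arrays, 0 without the 3 pools and between 1 and 3 when 1 array was left out. The replicate block changed no other count of members called. Over all genes the counts moved more, between 0 and 3318 for the E2 average (1741 in the text), between 0 and 1408 for E2 in casein-fed rats (346), between 0 and 2034 for E2 in soy-fed rats (31), between 0 and 1588 for soy without E2 (0) and between 0 and 1176 for soy plus E2 against casein (44). The low spike-in arrays hold no casein pool without E2, so only comparisons without that group could be made there. The cause of these moves was not tested, beyond the smaller number of samples where arrays were left out.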
